A study of Homo sapiens with 15 samples.

Results

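The surface Toll-like receptors are the sentinels with which monocytes recognise bacteria, and 10 genes of this system were followed in MOLM-14 cells: the receptors TLR1, TLR2, TLR4, TLR5 and TLR6, the co-receptors CD14 and LY96, the adaptor MYD88 and the signalling kinases IRAK1 and IRAK3. They were taken by symbol, and each had 1 entry among the 57964 of the expression table. MOLM-14 is an established human acute myeloid leukemia (AML) line of monocytic character with an MLL rearrangement. RNA was sequenced in 8 libraries, 2 from each of 4 groups collected at 6 h. For forced expression of the orphan nuclear receptor NR4A1, cells were electroporated with 100 nM NR4A1 IVT (in vitro-transcribed) RNA, and their controls with GFP IVT RNA at the same dose. For drug treatment, cells received 10 uM dihydroergotamine (DHE), an ergot drug, and their controls received vehicle (DMSO). The paper describes DHE as relieving the silencing of NR4A genes. The GFP and NR4A1 cells were thus all electroporated, the vehicle and DHE cells were not described as such, and all come from 1 cell line.

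Surface Toll-like receptors work in pairs. TLR2 joins TLR1 or TLR6 to bind bacterial lipopeptides, TLR4 binds lipopolysaccharide together with LY96 after CD14 has delivered it, and TLR5 binds flagellin. Inside the cell the paired receptors gather MYD88, which recruits kinases of the IRAK family. IRAK1 passes the signal on to NF-kB and the inflammatory genes, whereas IRAK3, found mainly in monocytes and macrophages, is known as a brake on the same step.

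Expression is given in TPM, Salmon's length-corrected estimate of how much of a library a transcript makes up, so levels can be set side by side between genes. TPM keep no read counts, which leaves the depth of each library unknown, and precision rests on the 2 libraries per group. Fold changes are limma estimates on log2(scaled TPM + 0.5), fitted over 14367 genes that reached 1 TPM in 2 or more libraries, and adjusted p-values are Benjamini-Hochberg values over all of them. A gene was called when its adjusted p was under 0.05 and its change exceeded 1.5-fold. NR4A1 itself was measured at 719 and 674 TPM in the libraries given its RNA, and between 1.27 and 2.84 TPM in the other 6. It was at 1.43 and 1.67 TPM with DHE and at 1.27 and 1.70 TPM with vehicle, which overlap. NR4A2 was at 0.629 and 0.964 TPM with DHE against 0.544 and 0.418 TPM with vehicle. NR4A3 was at 0.191 and 0.258 TPM with DHE against 0.00492 and 0.00665 TPM with vehicle. Of 12 myeloid blast and monocyte markers 11 were tested, and none of 6 lymphocyte, 6 erythroid and megakaryocyte, or 6 epithelial and fibroblast markers reached 1 TPM in 2 libraries. The replicates of the GFP and DHE groups lay further apart than the others, with SDs of their log2 differences of 0.403 and 0.395 against 0.240 for NR4A1 and 0.251 for vehicle. Across 8950 genes the differences between replicates 1 and 2 of the GFP and DHE groups correlated at -0.42, so that GFP replicate 1 and DHE replicate 2 stood apart from their partners in the same direction, and results are also given without both. In bulk RNA, fewer cells that express a gene and less of its RNA per cell cannot be told apart. No source says that replicates were separate cultures, so p-values measure the spread between these libraries, which may be technical.

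In resting, vehicle-treated cells the kinases IRAK1 and IRAK3 stood far above the receptors. IRAK1 was measured at 45.8 and 41.0 TPM and IRAK3 at 29.9 and 29.5 TPM. TLR2 was the most abundant receptor, at 7.31 and 6.95 TPM, and MYD88 followed at 6.31 and 4.59 TPM. The partners of TLR2 were scarcer, with TLR6 at 1.77 and 2.19 TPM and TLR1 at 1.24 and 1.25 TPM. All 6 of these genes reached 1 TPM in all 8 libraries and were tested. The other 4 did not pass the filter. LY96 was at 0.566 and 0.579 TPM, TLR4 at 0.249 and 0.246 TPM, TLR5 at 0.147 and 0.154 TPM, and CD14 at 0.0481 and 0.0655 TPM. With vehicle no neighbours in this order overlapped. By level, IRAK1 ranked 1851 and CD14 ranked 23476 of the 57964 entries. CD14, a textbook monocyte marker and helper of TLR4, thus lay lowest in the set. The lipopolysaccharide sensor TLR4 itself stood between LY96 and TLR5.

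**Figure D1:**
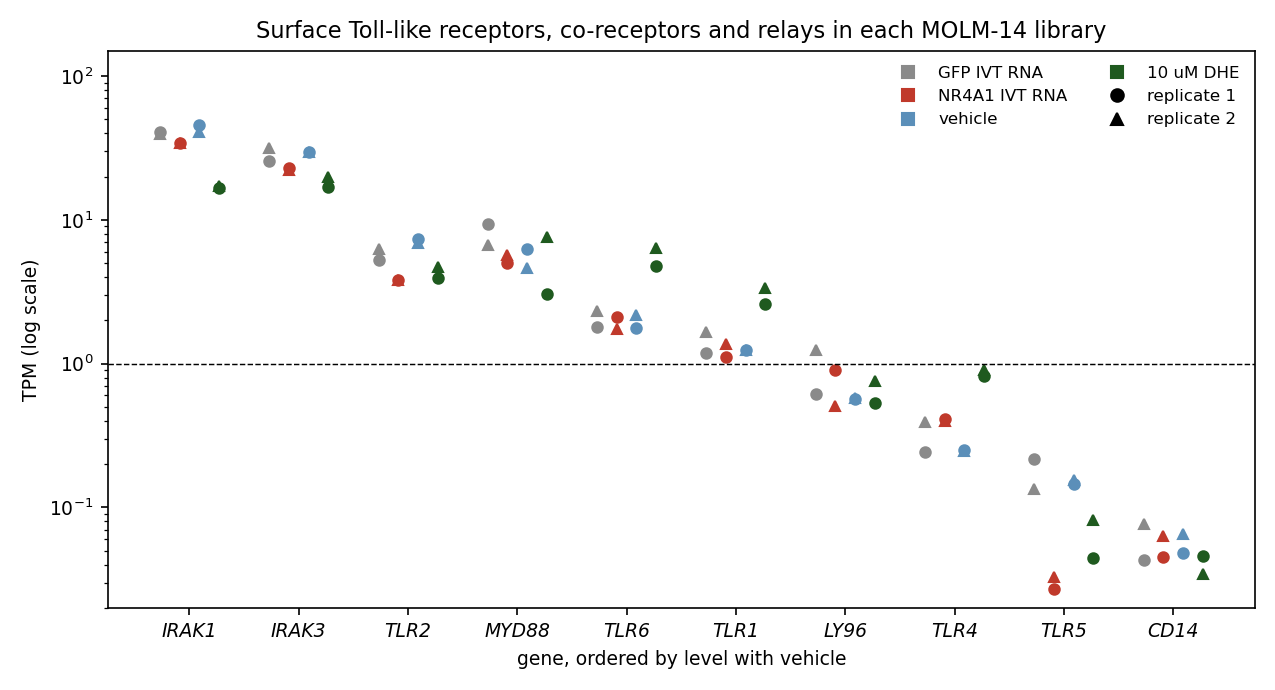
TPM of each gene on a log axis, with 1 point per library, colours for the 4 groups, shapes for the replicates and a dashed line at 1 TPM. TLR1, TLR6 and TLR4 lie highest in the 2 DHE libraries, IRAK1 and IRAK3 lie lowest there, and CD14 is at most at 0.0765 TPM.

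DHE raised both partners of TLR2 and lowered TLR2 itself. Of the 6 tested genes 5 were called between DHE and vehicle, 2 higher and 3 lower, against 19.2% of all genes tested (9.07% called higher and 10.1% called lower). Their median log2 change was -0.42, beside 0.04 over all genes tested. The opposite directions within a receptor pair are taken gene by gene.

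TLR6, which pairs with TLR2 for diacylated lipopeptides, rose from 1.77 and 2.19 TPM with vehicle to 4.75 and 6.34 TPM with DHE. The groups did not overlap, and the ratio of their scaled means was 2.73. On the log2 scale, which understates changes of low genes, the rise was 1.25 (SE 0.15, limma adjusted p = 0.0019). TLR1, which pairs with TLR2 for triacylated lipopeptides, rose from 1.24 and 1.25 TPM to 2.59 and 3.37 TPM. Here too both DHE libraries lay above both vehicle libraries, with a ratio of scaled means of 2.34 and a log2 change of 0.96 (SE 0.16, limma adjusted p = 0.0066). In both genes DHE replicate 2 was the higher of the pair.

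TLR1 and TLR6 are neighbours with stretches of identical sequence, so part of their signal cannot be told apart. On GRCh37, TLR1 (chr4:38792298-38858438, minus strand) and TLR6 (chr4:38824518-38858438, minus strand) overlap over the whole span of TLR6, 33921 bases. Their transcripts share 418 words of 31 bases, which is 9.05% of those of TLR1 and 6.10% of those of TLR6, and neither shares any with TLR2. Within the coding sequences 388 words are shared, which is 16.7% of those of TLR1 and 16.5% of those of TLR6. They lie between coding bases 1316 and 2173 of TLR1, counted from the start codon. The longest identical run, 218 bases, covers coding bases 1379 to 1596 of TLR1 and 1394 to 1611 of TLR6. It is shown because a read that falls inside it fits both genes equally. The run is printed 5′ to 3′ from TLR1 (GRCh37, chr4:38798856-38799075, minus strand), and the capitals mark the first base on each side at which TLR6 differs.
TLR1: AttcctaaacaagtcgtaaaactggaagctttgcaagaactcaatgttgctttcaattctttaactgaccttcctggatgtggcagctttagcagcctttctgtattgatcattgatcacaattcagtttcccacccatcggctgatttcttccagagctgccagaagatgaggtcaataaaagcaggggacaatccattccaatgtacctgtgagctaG

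**Figure D2:**
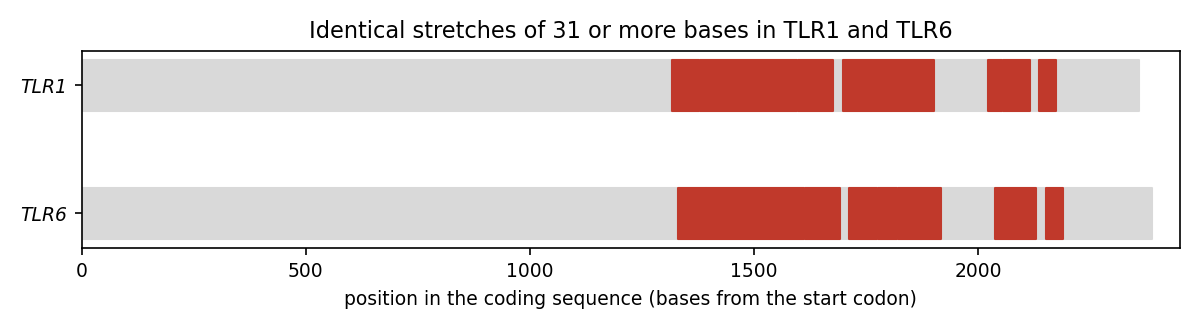
The coding sequences of TLR1 (2358 bases) and TLR6 (2388 bases), drawn to scale in gray from the start codon, with every identical stretch of at least 31 bases in red. All shared stretches lie in the later part of both genes, the first of them starting at coding base 1316 of TLR1.

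Salmon divides reads of such a run between both genes by what the rest of each transcript shows, so the individual levels of TLR1 and TLR6 are in part uncertain. The TLR1/TLR6 ratio stayed between 0.532 and 0.788 over the 8 libraries. What share of either rise comes from divided reads was not tested.

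TLR2, the common partner, moved the other way. It stood at 7.31 and 6.95 TPM with vehicle against 3.92 and 4.73 TPM with DHE, without overlap. The log2 change was -0.68 (SE 0.07, limma adjusted p = 0.0014), and the mean with vehicle was 1.68 times that with DHE. The partner ratios, which no scaling between libraries can change, therefore parted the groups. The TLR6/TLR2 ratio was 0.243 and 0.315 with vehicle and 1.21 and 1.34 with DHE. TLR6 was thus scarcer than TLR2 in every library except the 2 with DHE. The TLR1/TLR2 ratio was 0.170 and 0.179 with vehicle and 0.660 and 0.712 with DHE.

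**Figure D3:**
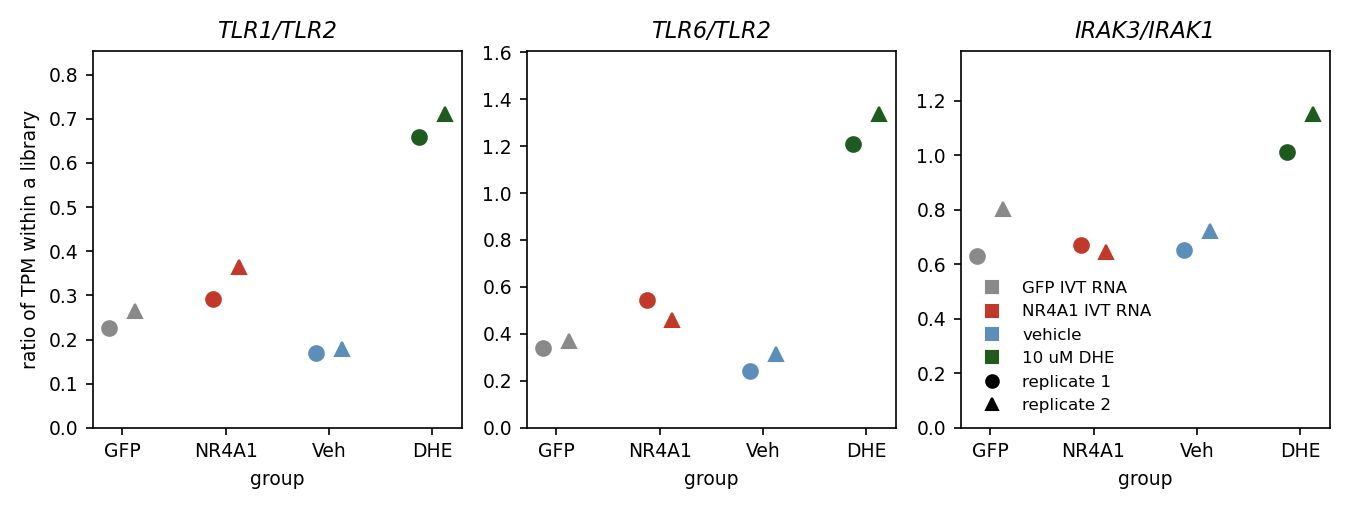
Ratios of TPM within each library, from 0, for TLR1 over TLR2, TLR6 over TLR2 and IRAK3 over IRAK1, with 1 point per library and the 4 groups on the horizontal axis. In all 3 ratios the 2 DHE points lie above the 6 others, and the TLR6/TLR2 points pass 1 only with DHE.

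Both IRAK genes fell with DHE. IRAK1 was at 45.8 and 41.0 TPM with vehicle against 16.7 and 17.3 TPM with DHE, a log2 change of -1.35 (SE 0.10, limma adjusted p = 4.5e-04). The vehicle mean was 2.59 times the DHE mean after scaling, beside the ratio of 2.73 in the other direction for TLR6. IRAK3 was at 29.9 and 29.5 TPM with vehicle against 16.9 and 19.9 TPM with DHE, a log2 change of -0.70 (SE 0.06, limma adjusted p = 6.0e-04). The signal-passing kinase fell further than the brake, and their order in abundance was no longer clear with DHE, where the 2 genes overlapped. The IRAK3/IRAK1 ratio, added after the values had been seen, was 0.652 and 0.721 with vehicle and 1.01 and 1.15 with DHE. After scaling to equal totals without ribosomal and small structural RNA, the adjusted p of IRAK3 was 0.055 at the same log2 change of -0.70. The calls of TLR1, TLR2, TLR6 and IRAK1 held there, and all 5 held when any 1 library was left out, and without GFP replicate 1 together with DHE replicate 2.

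MYD88, the adaptor between receptors and kinases, was the exception. It stood at 6.31 and 4.59 TPM with vehicle against 3.07 and 7.63 TPM with DHE, so the DHE libraries lay on either side of both vehicle libraries. The log2 change was -0.15 (SE 0.37, limma adjusted p = 0.79), with a 95% interval from -1.06 to 0.76 that holds changes of more than 1.5-fold in either direction. The estimate was 0.36 without DHE replicate 1 and 0.04 without vehicle replicate 1, so its direction rests on single libraries.

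**Figure D4:**
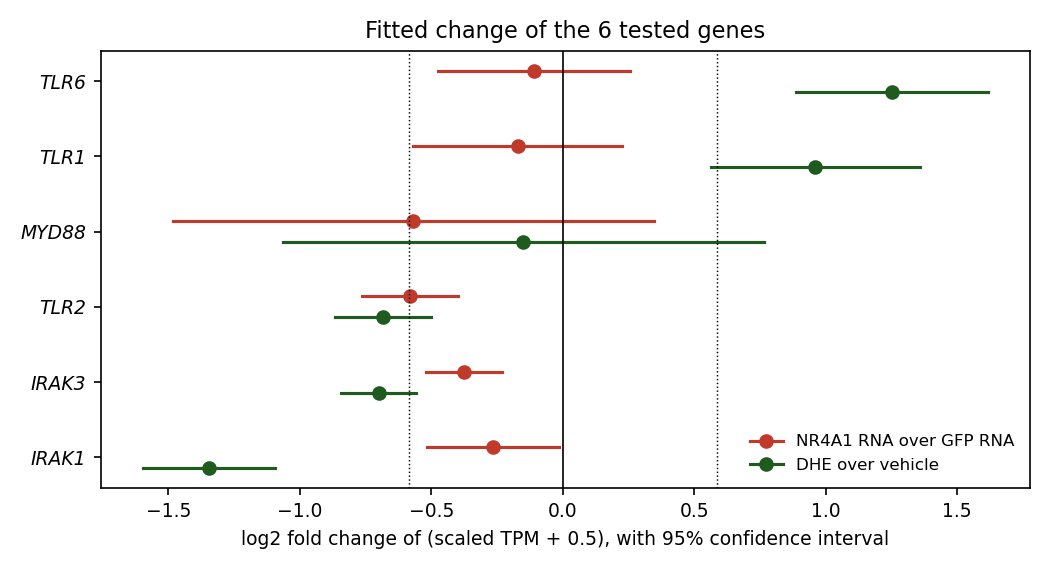
Log2 fold changes of the 6 tested genes with 95% confidence intervals from limma, in red for NR4A1 RNA over GFP RNA and in green for DHE over vehicle, with dotted lines at 1.5-fold. TLR1 and TLR6 lie to the right with DHE alone, TLR2 lies at -0.58 with NR4A1 and -0.68 with DHE, and the intervals of MYD88 are the widest.

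Of the 4 genes that did not pass the filter, TLR4 was higher in both DHE libraries than in both vehicle libraries, TLR5 and CD14 were lower in both, and LY96 overlapped. TLR4 was listed at 0.249 and 0.246 TPM with vehicle against 0.816 and 0.905 TPM with DHE, and in the electroporated cells at 0.244 and 0.394 TPM with GFP and at 0.411 and 0.401 TPM with NR4A1. The ratio of the scaled means with DHE and vehicle was 3.42. TLR4 did not pass the filter, and in the fit without a filter its log2 change was 0.84 (limma adjusted p = 0.026), which meets the call. At these levels TLR4 with DHE was still scarcer than TLR1 with vehicle.

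The helpers of TLR4 were not higher in both DHE libraries. LY96 was at 0.566 and 0.579 TPM with vehicle against 0.530 and 0.751 TPM with DHE, which overlap, and CD14 was at 0.0481 and 0.0655 TPM with vehicle against 0.0456 and 0.0342 TPM with DHE. The LY96/TLR4 ratio accordingly went from 2.28 and 2.36 with vehicle to 0.649 and 0.829 with DHE. LY96 was more abundant than TLR4 in the 6 other libraries and less abundant in these 2. TLR5 was at 0.147 and 0.154 TPM with vehicle against 0.0444 and 0.0810 TPM with DHE. In the fit without a filter the adjusted p-values for DHE were 0.98 for LY96, 0.64 for CD14 and 0.22 for TLR5. Transcripts this scarce rest on an unknown number of reads.

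No member was called with NR4A1 RNA. None of the 6 tested genes was called by limma between NR4A1 and GFP, against 4.90% of all genes tested (2.64% higher and 2.26% lower). At an unadjusted p under 0.05 there were 3 of the 6, against 28.6% of all genes tested. Those 3 were TLR2, IRAK1 and IRAK3, all lower with NR4A1. The median log2 change of the 6 genes was -0.32, beside -0.02 over all genes tested.

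TLR2 was at 5.27 and 6.29 TPM with GFP and at 3.84 and 3.79 TPM with NR4A1, so both NR4A1 libraries lay below both GFP libraries. Its log2 change of -0.58 (SE 0.07, limma adjusted p = 0.011) passed the p threshold and missed the fold limit, which is 0.585 on this scale. With a pseudocount of 0.1 it was -0.63 and called. TLR2 was also called without GFP replicate 1 (-0.61) and without vehicle replicate 1 or 2 (-0.59 in both). It was not called without NR4A1 replicate 1 (-0.57) or NR4A1 replicate 2 (-0.59). Its limma adjusted p was 0.070 with the 4 libraries compared alone and 0.092 with no rescaling. IRAK3 was at 25.8 and 31.5 TPM with GFP and at 23.0 and 22.2 TPM with NR4A1, a log2 change of -0.38 (SE 0.06, limma adjusted p = 0.019). That decrease passed the p threshold at less than 1.5-fold. Its adjusted p was 0.15 without NR4A1 replicate 1 or 2, 0.062 without vehicle replicate 1, 0.061 without vehicle replicate 2, 0.093 with the 4 libraries compared alone and 0.22 with no rescaling. IRAK1, at 40.8 and 39.3 TPM with GFP and 34.3 and 34.5 TPM with NR4A1, did not overlap between the groups either, but its log2 change of -0.27 had a limma adjusted p of 0.16. Without GFP replicate 1 it was -0.14 (adjusted p = 0.42), and without GFP replicate 2 it was -0.39 (adjusted p = 0.043). Scaling to equal totals without structural RNA moved the median of all genes in this comparison from -0.02 to 0.18, with 215 genes called higher and 57 lower in place of 380 and 324. Under it TLR2 was at -0.38 (adjusted p = 0.32), which is lower than that median, IRAK3 was at -0.15 (adjusted p = 0.65), IRAK1 was at -0.04 (adjusted p = 0.89), and the direction of TLR6 turned to 0.07.

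The partners of TLR2 gave no call with NR4A1. TLR1 was at 1.19 and 1.67 TPM with GFP and at 1.12 and 1.38 TPM with NR4A1 (log2 change -0.17, 95% interval -0.57 to 0.23, limma adjusted p = 0.51). TLR6 was at 1.78 and 2.32 TPM with GFP and at 2.09 and 1.75 TPM with NR4A1 (log2 change -0.11, 95% interval -0.48 to 0.25, limma adjusted p = 0.65). The groups overlapped in both genes, and the upper limits lie below the rises seen with DHE. MYD88 was at 9.36 and 6.64 TPM with GFP and at 5.002 and 5.72 TPM with NR4A1, with a log2 change of -0.57 (SE 0.37, limma adjusted p = 0.35). Of the scarce receptors, TLR5 was at 0.215 and 0.133 TPM with GFP and at 0.0272 and 0.0327 TPM with NR4A1. Its GFP mean was 6.12 times its NR4A1 mean after scaling, at levels too low for the filter, and without a filter the adjusted p was 0.12. CD14, at 0.0431 and 0.0765 TPM with GFP and 0.0450 and 0.0634 TPM with NR4A1, and LY96, at 0.611 and 1.23 TPM with GFP and 0.907 and 0.504 TPM with NR4A1, overlapped between the groups.

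The effects of both treatments were set against each other in the same fit, which compares an RNA electroporation with a drug added to the medium, each relative to its own control. The DHE effect minus the NR4A1 effect had an adjusted p under 0.05 in 4 of the 6 genes, positive in 2 and negative in 2, against 18.9% of all genes tested (8.03% higher and 10.9% lower). The differences on the log2 scale were 1.36 for TLR6 (SE 0.21, limma adjusted p = 0.012) and 1.13 for TLR1 (SE 0.23, limma adjusted p = 0.025). They were -1.08 for IRAK1 (SE 0.15, limma adjusted p = 0.0088) and -0.33 for IRAK3 (SE 0.08, limma adjusted p = 0.045). For TLR2 the difference was -0.10 (95% interval -0.36 to 0.16, limma adjusted p = 0.53), so the data bound how far its decreases may differ, and for MYD88 it was 0.42 (adjusted p = 0.60). These 4 calls rest on few libraries. None of the 6 genes passed without NR4A1 replicate 2 or without vehicle replicate 1, and 2 passed without DHE replicate 2, NR4A1 replicate 1 or vehicle replicate 2. The sign of each of the 4 differences held in all alternatives run.

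The controls gave no call in these genes. Between GFP and vehicle none of the 6 was called by limma, against 0.0139% of all genes tested (0.0139% higher and 0.0% lower). None had an unadjusted p under 0.05, against 18.7% of all genes tested. TLR2 was at 5.27 and 6.29 TPM with GFP and at 7.31 and 6.95 TPM with vehicle, the lowest adjusted p of the 6 at 0.27. IRAK1 had a log2 difference of 0.00 (95% interval -0.25 to 0.25). MYD88 was at 9.36 and 6.64 TPM with GFP and at 6.31 and 4.59 TPM with vehicle, without overlap. Its log2 difference was 0.62 (95% interval -0.29 to 1.53, limma adjusted p = 0.39).

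Among the genes called with DHE whose sequence just before the start was found, TLR6 is the only one called higher. A link between this sequence and the direction of change was not tested. The 250 bases upstream of the RefSeq start (GRCh38.p14) were found for 8 of the 10 genes, TLR1 and LY96 not being among them, and 7 motifs were searched on both strands. They are shown for TLR6, called higher with DHE, and for TLR2, IRAK1 and IRAK3, called lower, since these genes carry the contrast described above. The sequences are written 5′ to 3′ on the strand of the gene, and capitals mark every motif match. They lie at chr4:38856818-38857067 (minus strand) for TLR6, chr4:153684030-153684279 (plus strand) for TLR2, chrX:154019903-154020152 (minus strand) for IRAK1 and chr12:66188964-66189213 (plus strand) for IRAK3.
TLR6: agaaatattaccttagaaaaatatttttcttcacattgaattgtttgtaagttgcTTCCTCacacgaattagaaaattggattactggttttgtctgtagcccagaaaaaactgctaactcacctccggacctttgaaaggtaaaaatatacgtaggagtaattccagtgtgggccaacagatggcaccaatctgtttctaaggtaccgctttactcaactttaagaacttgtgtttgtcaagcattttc
TLR2: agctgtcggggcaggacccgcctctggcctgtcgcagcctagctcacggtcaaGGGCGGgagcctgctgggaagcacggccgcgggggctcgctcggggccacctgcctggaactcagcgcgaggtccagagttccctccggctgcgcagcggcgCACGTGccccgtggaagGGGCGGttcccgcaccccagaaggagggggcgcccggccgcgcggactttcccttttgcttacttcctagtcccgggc
IRAK1: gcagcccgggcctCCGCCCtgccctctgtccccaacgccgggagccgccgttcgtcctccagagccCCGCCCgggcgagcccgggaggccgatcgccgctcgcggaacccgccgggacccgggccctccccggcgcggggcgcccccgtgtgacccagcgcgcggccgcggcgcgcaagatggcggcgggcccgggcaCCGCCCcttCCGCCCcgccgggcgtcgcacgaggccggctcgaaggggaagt
IRAK3: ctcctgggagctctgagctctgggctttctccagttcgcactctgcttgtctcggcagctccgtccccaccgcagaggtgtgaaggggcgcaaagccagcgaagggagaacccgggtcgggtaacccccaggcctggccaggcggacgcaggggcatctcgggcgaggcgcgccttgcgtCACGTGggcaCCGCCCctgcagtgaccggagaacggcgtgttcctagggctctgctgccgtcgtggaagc

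The promoter of TLR6 holds 36.4% G and C, against 72.4% in TLR2, 82.4% in IRAK1, 68.4% in IRAK3 and a median of 58% over 35116 promoters. Among the promoters not shown, the share is 64.4% in MYD88, 66% in TLR5, 54.8% in CD14 and 46.4% in TLR4. The E-box CACGTG is the sequence that MYC and its partner MAX are known to bind. It begins 95 bases before the start of TLR2 and 70 bases before that of IRAK3, and 6.34% of all promoters hold it. No E-box was found in IRAK1, which was also called lower, or in TLR6, and a part of MYC was not tested. The GC box GGGCGG occurs 4 times in IRAK1, 2 times in TLR2 and once in IRAK3, and in 42.6% of all promoters. It was also found in MYD88, TLR5 and TLR4. The GAGGAA core known from the myeloid factor PU.1 is the one match in TLR6, and 23.6% of all promoters hold it. This core was also found in MYD88, CD14 and TLR4, so neither it nor the GC box was particular to the genes shown. No match was found in these 4 windows for the NBRE AAAGGTCA, to which NR4A receptors are known to bind as monomers (1.05% of all promoters), or for TGANTCA of AP-1 (6.57%) and the cAMP response element TGACGTCA (1.65%). The same holds for an NF-kB site written as GGG and TTTCC with 2 free bases between them (1.73%). In the GC box and GAGGAA the match may lie on either strand, and no match says only that these letters are not in this window.

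Some genes outside the set had a closely similar pattern over the 8 libraries, measured by Pearson's r of log2(scaled TPM + 0.5) among genes averaging 5 scaled TPM or more. The libraries share their groups, so r is given as a description. For TLR2 the nearest were ALDH1A3 (r = 0.991) and MYB (r = 0.989). ALDH1A3, an enzyme that makes retinoic acid, was at 13.7 and 11.7 TPM with vehicle against 2.11 and 2.09 TPM with DHE, and at 8.47 and 8.93 TPM with GFP and 1.52 and 1.63 TPM with NR4A1. MYB, a transcription factor of blood progenitors, was at 157 and 149 TPM with vehicle against 94.1 and 100.2 TPM with DHE. The genes nearest to TLR6 were DOPEY1 (r = 0.990) and CASC5 (r = 0.986), and those nearest to TLR1 were WDR7 (r = 0.985) and KANK2 (r = 0.978). Within the set, TLR1 and TLR6 had r = 0.957, a value to which reads divided between both genes may add, which was not tested. IRAK1 and IRAK3 had r = 0.930, TLR2 and IRAK3 had r = 0.822, and TLR6 and IRAK1 had r = -0.965.

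The rest of the pathway moved in both directions. Of 103 genes in 6 lists, 66 were tested, and 10 were called higher and 9 lower with DHE, against the 9.07% and 10.1% of all genes. With NR4A1, 1 was called higher and 5 lower, against 2.64% and 2.26% of all genes. The medians of the 66 log2 changes were 0.07 with DHE and -0.12 with NR4A1, beside 0.04 and -0.02 over all genes tested. The 19 calls with DHE became 13 without vehicle replicate 1, 13 without vehicle replicate 2, 16 without DHE replicate 1 or 2, 17 without GFP replicate 1 and DHE replicate 2, and 14 after scaling to equal totals without structural RNA. The 6 with NR4A1 became 2, CD83 and F3, without NR4A1 replicate 1 or 2 and with the 4 libraries compared alone. They became 4 without GFP replicate 1, where NOD2, PELI3 and TAB1 lost their calls, and 9 without GFP replicate 2. After scaling to equal totals without structural RNA, CD83 alone of the 6 kept its call with NR4A1.

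Of 14 other Toll-like receptors and their helpers 7 were tested, and TLR3, TLR7, TLR8, TLR9 and TLR10 stayed under 0.243 TPM in all libraries. CD36, a scavenger receptor known to serve TLR2 and TLR6 as a co-receptor, rose from 4.74 and 4.28 TPM with vehicle to 14.0 and 13.5 TPM with DHE (log2 change 1.49, SE 0.12, limma adjusted p = 5.8e-04). UNC93B1, the chaperone that carries endosomal Toll-like receptors, fell from 41.4 and 42.0 TPM to 20.8 and 23.1 TPM (log2 change -0.94, SE 0.07, limma adjusted p = 3.7e-04). With NR4A1 neither was called, and no gene of this list was. UNC93B1 still fell there, from 36.2 and 37.5 TPM with GFP to 26.6 and 25.9 TPM. Its log2 change of -0.53 (limma adjusted p = 0.010) missed the fold limit alone, as did that of HSP90B1, at 0.41 (limma adjusted p = 0.020).

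Among 22 adaptors and signalling relays 20 were tested, with 3 called higher and 3 lower with DHE. The ubiquitin ligase PELI2 rose by 0.81 and its relative PELI3 fell by 1.26 on the log2 scale, both of the Pellino family that modifies IRAK kinases. UBE2N, which builds the ubiquitin chains of this pathway, fell by 0.81, and the adaptor TRAF3 fell by 0.93. The others called higher, chosen after their values were seen, were TICAM2 (1.09), the bridging adaptor of TLR4, and TAB2 (0.91), a subunit of the TAK1 kinase complex. TICAM2 passed the filter through its DHE libraries alone, at 2.27 and 1.59 TPM against 0.758 and 0.484 TPM with vehicle. TICAM2 lost its call without any 1 of the DHE or vehicle libraries and with the 4 libraries compared alone. TAB2 lost its call without DHE replicate 2 or any 1 of the vehicle or NR4A1 libraries, with a replicate block and without a filter. PELI2 lost its call without vehicle replicate 1, TRAF3 without vehicle replicate 2, and PELI2 and UBE2N with equal totals without structural RNA. With NR4A1, PELI3 fell by 0.86 and TAB1, another subunit of that complex, by 0.65.

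All 16 brakes on Toll-like receptor signalling were tested, with 2 called higher and 2 lower with DHE. The deubiquitinase CYLD rose from 8.01 and 7.47 TPM with vehicle to 15.2 and 16.7 TPM with DHE (log2 change 0.97), and SOCS3, an inhibitor of cytokine signalling, rose by 0.73. TNFAIP3, a ubiquitin-editing brake on NF-kB, fell by 0.70, and the lipid phosphatase INPP5D fell by 0.68. INPP5D was the brake called with NR4A1, at 43.0 and 43.0 TPM with GFP and 28.4 and 25.0 TPM with NR4A1 (log2 change -0.73, limma adjusted p = 0.0079). The calls of SOCS3 and TNFAIP3 were lost without DHE replicate 1, vehicle replicate 1 or vehicle replicate 2, and that of SOCS3 also with the 4 libraries compared alone and with equal totals without structural RNA.

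The response genes held the largest changes. TNF, the inflammatory cytokine, fell from 15.9 and 15.4 TPM with vehicle to 2.49 and 2.73 TPM with DHE (log2 change -2.39, SE 0.07, limma adjusted p = 6.7e-05), and stood at 21.5 and 22.1 TPM with GFP and 23.1 and 22.8 TPM with NR4A1. CD83, a surface protein of activated antigen-presenting cells, rose with both treatments, from 5.71 and 5.71 TPM to 18.2 and 18.5 TPM with DHE and from 6.31 and 7.84 TPM with GFP to 44.1 and 40.5 TPM with NR4A1. NFKB2 and RELB, subunits of the noncanonical NF-kB pathway, rose with DHE by 1.35 and 1.15 on the log2 scale. Both were also higher with GFP than with vehicle, by 1.15 and 1.65, though not called (limma adjusted p = 0.059 in both). RELB was at 3.83 and 3.19 TPM with GFP, above its 2.36 and 2.80 TPM with DHE. F3, tissue factor, fell with NR4A1 from 31.1 and 36.7 TPM to 16.8 and 16.0 TPM (log2 change -1.07, limma adjusted p = 0.0012). Of these 27 genes 14 were tested and 3 were listed at 0 in all libraries.

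Among 17 other pattern receptors of monocytes 7 were tested. FCGR2A, a receptor for antibody-coated particles, rose with DHE from 16.9 and 15.7 TPM to 51.2 and 55.0 TPM (log2 change 1.65, limma adjusted p = 6.9e-05), and the inflammasome sensor NLRP3 fell by 0.65, a call lost without DHE replicate 2 and with equal totals without structural RNA. NOD2, a sensor of bacterial wall peptides, fell with NR4A1 from 2.12 and 2.04 TPM to 0.714 and 0.714 TPM (log2 change -1.13, limma adjusted p = 0.013). Of 7 interleukin-1 family receptors, which share MYD88 and the IRAK kinases with the Toll-like receptors, 2 were tested. IL18R1 was called lower with DHE (log2 change -0.94), a call lost in several of the alternatives run. It was at 0.929 and 1.05 TPM with vehicle against 0.305 and 0.239 TPM with DHE. IL18R1 passed the filter only through GFP replicate 2 (1.06 TPM) and vehicle replicate 2, so it was tested only because of groups where it was high. Myeloid markers moved beside these genes. Of 11 tested, CSF1R was called higher and MPO and FLT3 lower with DHE, against 9.07% and 10.1% of all genes tested. With NR4A1, LYZ was called higher and SPI1 lower, against 2.64% and 2.26% of all genes tested. LYZ was at 88.3 and 134 TPM with GFP and at 178 and 172 TPM with NR4A1 (limma adjusted p = 0.049). Both NR4A1 values lay below its 207 and 202 TPM with vehicle. The summed level of the 12 markers ranged from 453 to 590 TPM over the libraries. Their part in the changes above was not tested.

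**Figure D5:**
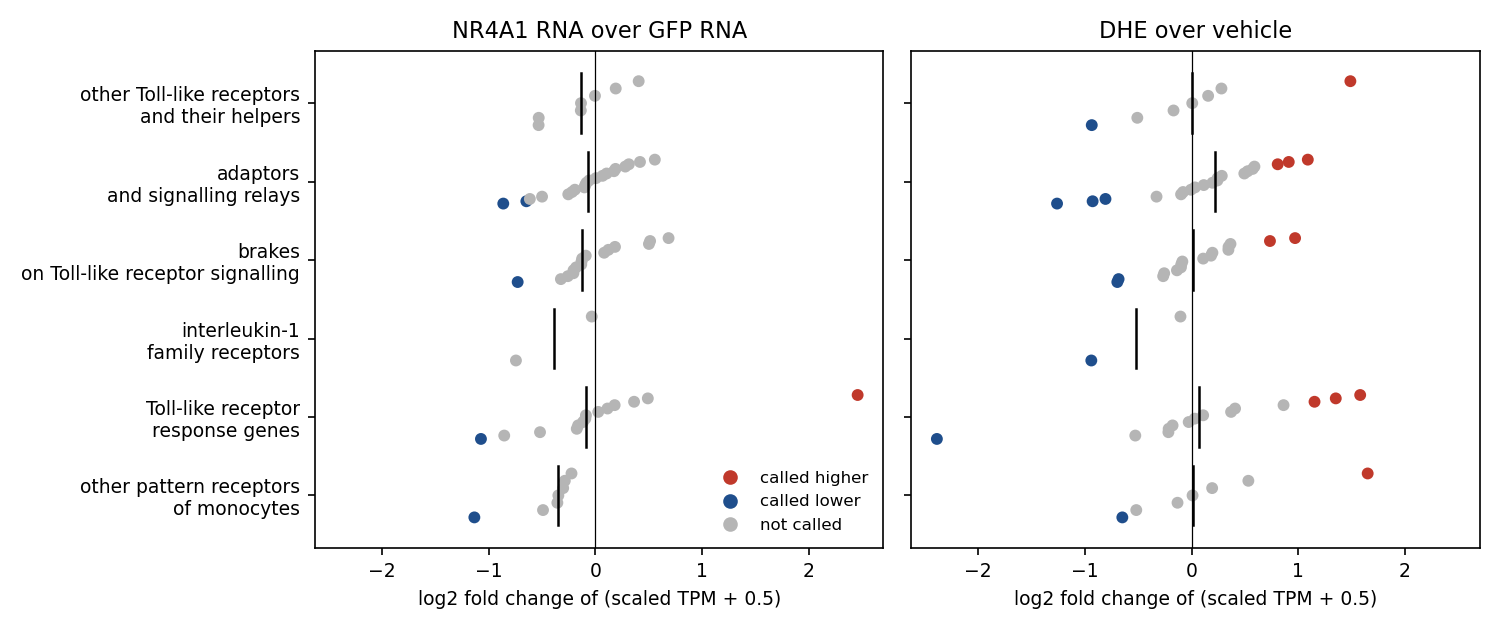
Log2 fold changes of the tested genes of 6 pathway lists, with 1 point per gene, red for called higher, blue for called lower, gray for not called, and a black bar at the median of each list, for NR4A1 RNA over GFP RNA on the left and DHE over vehicle on the right. With DHE the medians of 5 lists lie between 0.01 and 0.22, the interleukin-1 family list with 2 tested genes lies lower, and TNF is the point farthest to the left.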

How the data were processed

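RNA-Seq of 8 MOLM-14 libraries was used, 2 per group. The 7 ChIP-Seq samples were not analysed here. Per the paper's methods and the labels, ribosomal RNA was removed before strand-marked libraries were built, reads were trimmed with Trim Galore and transcripts of Gencode release 29 were quantified with Salmon 0.11.0. The authors deposited TPM per gene, summing to 1000000 in each library, so that every value is a share of its library and a change in a few abundant RNAs moves all others. TPM hold no depth, and no counting error can be given. The authors also deposited log2 fold changes and p-values of their own 2 comparisons, made with DESeq2 under a design that is not stated; none was used.

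Libraries were divided by their median of ratios over genes with at least 1 TPM in all 8 (factors 0.889 to 1.12), and log2(scaled TPM + 0.5) of the 14367 genes with at least 1 TPM in 2 libraries was fitted with limma 3.58.1 (R 4.3.3), with 4 group means and an intensity trend (4 residual and 2.07 prior degrees of freedom). Tests were two-sided with Benjamini-Hochberg adjustment over all genes tested; the difference of effects was called on its adjusted p alone. The steps were run on simulated data with independent noise of 1 spread per gene in all libraries. That simulation does not hold the unequal spreads of the groups or the correlated replicate differences of GFP and DHE. Alternatives were 3 other scalings, pseudocounts of 0.1 and 1, no filter or 5 TPM, the 4 libraries compared alone, a replicate block, robust empirical Bayes, and leaving out each library, or GFP replicate 1 and DHE replicate 2 together. Named pathway genes are up to 4 called genes per list with the smallest p for DHE and up to 3 for NR4A1, and the 2 most similar genes of each tested receptor. The members, lists and tests were chosen with earlier results of these data known. Positions and coding sequences come from GRCh37 with the lifted Gencode annotation, and promoters from RefSeq on GRCh38.p14; neither is the annotation the study counted on. Figures were drawn with matplotlib 3.10.9 under Python 3.11.15.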

Additional observations from a re-analysis of the deposited data

Results flagged for a closer look

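In 4 of the 6 tested genes the effects of DHE and of NR4A1 RNA differed by the limma test of the difference itself. The share over all genes tested was 18.9%. The DHE effect minus the NR4A1 effect was 1.36 on the log2 scale for TLR6, 1.13 for TLR1, -1.08 for IRAK1 and -0.33 for IRAK3. TLR6 and TLR1 rose with DHE and were not called with NR4A1, whereas the IRAK1 estimates were -0.27 with NR4A1 and -1.35 with DHE and those of IRAK3 -0.38 and -0.70. Over the alternatives run the difference ranged from 1.19 to 1.54 for TLR6, from 0.93 to 1.38 for TLR1, from -1.30 to -0.96 for IRAK1 and from -0.54 to -0.28 for IRAK3. The highest adjusted p over these alternatives was 0.10 for TLR6, 0.16 for TLR1, 0.052 for IRAK1 and 0.29 for IRAK3.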

How the results depend on the processing

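The 5 calls with DHE numbered 3 with a 5 TPM filter, which removes TLR1 and TLR6, and 6 without a filter. With NR4A1, no call became 1 (TLR2) with a pseudocount of 0.1 or without GFP replicate 1 and DHE replicate 2 together, and 0 to 1 when 1 library was left out. For the difference of effects, 4 calls became 1 after scaling to equal totals without structural RNA, 2 with no rescaling, no filter or a 5 TPM filter, and 0 to 4 when 1 library was left out. That fit was not run on the 4 libraries compared alone. With 1 library left out, the lone sample of a group is assumed to vary like the others.

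Signs turned only in values that were not called. Equal totals without structural RNA gave 0.065 for TLR6 with NR4A1, and -0.036 for TLR6, -0.21 for IRAK1 and -0.16 for IRAK3 between GFP and vehicle. In that comparison, no rescaling gave -0.11 for IRAK1 and -0.060 for IRAK3, upper quartile scaling -0.010 for IRAK1, and leaving out GFP replicate 1 and DHE replicate 2 -0.12 for IRAK1. Leaving out 1 library gave -0.0047 to 0.26 for TLR6 and -0.12 to 0.12 for IRAK1 there, -0.66 to 0.36 for MYD88 with DHE, and -0.094 to 0.92 for MYD88 in the difference of effects, which was -0.42 without GFP replicate 1 and DHE replicate 2.

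Over all genes, the 704 calls with NR4A1 became 272 with equal totals without structural RNA, 454 with no rescaling, 243 with the 4 libraries compared, and 93 to 1499 when 1 library was left out. The 2716 calls for the difference of effects became 231, 919 and, without a filter, 1619, with 422 to 4248 when 1 library was left out. The 2 calls between GFP and vehicle became 25 without a filter, 37 with a pseudocount of 0.1, 4 with robust empirical Bayes, and 0 to 489 when 1 library was left out. Replicate differences correlated at 0.067 between GFP and NR4A1 and at 0.055 between vehicle and DHE, so equal replicate numbers were not taken as pairs. Between GFP and DHE, which are not compared, the correlation was -0.42. With a replicate block the calls were 5 with DHE, 0 with NR4A1, 0 between GFP and vehicle, and 3 for the difference of effects, where IRAK3 was at -0.33 with an adjusted p of 0.081, and 1476 genes over all. The depth of the libraries is unknown, so what it limits for TLR4, TLR5, CD14 and LY96 cannot be given.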
